A study of Homo sapiens with 6 samples.

Results

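The Notch genes examined here were the receptors NOTCH1, NOTCH2 and NOTCH3, the ligands JAG1, JAG2, DLL1 and DLL4, and the targets HES1, HEY1 and NRARP. They were taken by gene symbol from the deposited table, where all 10 were found among 60546 genes. The table covers RNA from HCT-116, an established human colon carcinoma cell line. The HCT-116-PMSCV-GOLPH3 cells had been infected with the viral vector PMSCV carrying the human GOLPH3 cDNA, and the HCT-116-PMSCV-Vector cells had been infected with the empty vector. Both groups were otherwise labelled wild type and were grown in the same medium with serum. Each group had 3 libraries, made from cells of different generations of 1 stable line, and whether a line was a pool or a single clone is not given in the sources used here. The libraries of a group are thus repeated samplings of 1 line, and p-values measure the spread between those samplings. A number that follows the letter P in the sample titles was 8, 12 and 13 for GOLPH3 replicates 1, 2 and 3, and 12, 11 and 13 for Vector replicates 1, 2 and 3. Its meaning is not stated.

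Notch receptors are membrane proteins that are activated by ligands on a neighbouring cell. Ligand binding leads to cleavage by an ADAM protease and then by gamma-secretase, and the released intracellular part of the receptor enters the nucleus. There it joins the DNA-binding protein RBPJ and a Mastermind coactivator and switches on genes such as those of the HES and HEY families, which code for transcriptional repressors, and NRARP, which codes for a feedback inhibitor of the pathway. In the intestine, Notch signalling through HES1 keeps progenitor cells proliferating and restrains the secretory fate by repressing ATOH1. Notch ligands can also block the receptors of the cell that makes them.

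RBPJ binds DNA at a short core, TGGGAA, and HES1 is a textbook target of RBPJ. The 250 bases before the RefSeq start site in GRCh38.p14 were searched for TGGGAA on both strands, where the other strand reads TTCCCA. Of 35116 RefSeq promoters 20.8% held at least 1 copy, and 5.43% held the longer form GTGGGAA, which contains the shorter one, on either strand. Among the 8 members with a promoter sequence, only that of HES1 held the core, with 2 copies that begin 84 and 70 bases before the start. Both copies are in the same orientation, and whether they are the sites that RBPJ uses was not tested. The promoters of NOTCH1, NOTCH2, NOTCH3, JAG1, JAG2, DLL4 and NRARP held 0 copies in this window. Of the related HEY genes, HEY2 held 1 copy, 213 bases before the start, and HEYL held 2, at 178 and 99 bases. HEY1 and DLL1 were not searched, as no sequence of theirs was used here. The promoters of HES1, NRARP and the related HEY genes are shown because these are the targets that the results on HEY1 are set beside. The core is in capitals, and each run ends at the base before the start site. HES1 is at chr3:194135898-194136147 on the plus strand, NRARP at chr9:137302272-137302521 on the minus strand, HEY2 at chr6:125749382-125749631 on the plus strand and HEYL at chr1:39639644-39639893 on the minus strand, all read 5′ to 3′ along the gene's own strand.
HES1: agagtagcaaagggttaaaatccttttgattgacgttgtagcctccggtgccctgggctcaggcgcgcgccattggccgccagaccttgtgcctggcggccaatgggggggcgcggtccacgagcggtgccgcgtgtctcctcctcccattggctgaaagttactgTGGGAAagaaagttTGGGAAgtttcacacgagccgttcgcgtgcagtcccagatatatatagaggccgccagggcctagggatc
NRARP: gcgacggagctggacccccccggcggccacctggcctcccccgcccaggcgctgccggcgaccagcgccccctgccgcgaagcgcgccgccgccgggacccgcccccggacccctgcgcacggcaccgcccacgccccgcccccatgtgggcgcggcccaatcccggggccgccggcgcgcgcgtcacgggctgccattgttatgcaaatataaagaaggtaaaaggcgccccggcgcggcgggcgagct
HEY2: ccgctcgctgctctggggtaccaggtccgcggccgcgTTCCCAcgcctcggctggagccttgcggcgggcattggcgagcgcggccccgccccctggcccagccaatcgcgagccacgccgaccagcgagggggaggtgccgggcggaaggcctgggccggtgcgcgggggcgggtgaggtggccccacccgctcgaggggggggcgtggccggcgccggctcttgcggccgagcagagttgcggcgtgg
HEYL: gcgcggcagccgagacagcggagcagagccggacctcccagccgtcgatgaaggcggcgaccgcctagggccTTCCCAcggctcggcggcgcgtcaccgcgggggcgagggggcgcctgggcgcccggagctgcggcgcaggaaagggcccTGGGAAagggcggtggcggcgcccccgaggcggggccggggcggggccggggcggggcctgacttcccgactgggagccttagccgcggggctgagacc
A match is a string of letters and not a measured binding site, and its absence concerns only these windows.

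The deposited value of a gene is its read count over the size factor of that library, and such values are called normalized reads here. The libraries held between 15708846 and 21900764 recovered reads, so 3 reads correspond to 2.47 to 3.29 normalized reads, and intervals or limits from such counts cover counting error only. The GOLPH3 transcript itself had 1630, 1272 and 1383 normalized reads in the GOLPH3-labelled libraries and 1968, 1892 and 1472 in the Vector-labelled ones (log2 difference -0.31, standard error 0.27, adjusted p = 0.609 by limma). This RNA was not detectably higher under its own label, so every direction below refers to labels only. The paper reports western blots from which it took the GOLPH3-overexpressing lines as successfully made. Those blots measured protein, while the values here are of RNA. The colon epithelial genes EPCAM, CDH1, KRT8, KRT18 and KRT19 were abundant in all 6 libraries, while CDX1 and KRT20 had at most 3 reads and VIL1 and LGALS4 at most 5 reads in each. These 5 were lower in every Vector-labelled library than in any GOLPH3-labelled one. EPCAM and CDH1 were lowest in Vector replicate 3, at 1758 and 912 normalized reads. KRT8, KRT18 and KRT19 were highest there among the Vector libraries, at 23728, 7719 and 6139. CDX2 overlapped between the groups, at 247, 261 and 358 under the label GOLPH3 and 415, 184 and 897 under the label Vector. Of 8 genes known from HEK293 cells, 5 (IRS4, NEFL, NEFM, UCHL1 and LIN28B) were at 5 reads or fewer in each GOLPH3-labelled library while reaching 50 normalized reads or more in each Vector-labelled one. The others did not follow this. GAL had 938, 1969 and 1991 against 1991, 1272 and 1688, PAX2 had 134, 112 and 130 against 104, 88.7 and 148, and INA had at most 2.13. The summed level of the 8 was 1078 to 2123 against 4306 to 10418, and under the label GOLPH3 nearly all of it was GAL and PAX2. The libraries also differed in how level moved with the GC content of the transcript, that is, the share of its bases that are G or C. Among genes with a GC content over 65%, the median log2 level relative to each gene's own mean was -0.07, 0.37 and 0.92 in GOLPH3 replicates 1 to 3 and -0.29, -1.19 and 0.33 in Vector replicates 1 to 3, and the median group difference of these genes was 0.81. The median group difference was 0.60 for genes over 60% and up to 65% GC, where NOTCH1, NOTCH3 and JAG2 lie. For genes over 55% and up to 60%, where DLL4 (59.7%) lies, it was 0.37. This dependence bears most on NOTCH1, NOTCH3, JAG2 and NRARP, whose transcripts have a GC content of 62.9% to 67.3%. It bears less on NOTCH2, JAG1, HES1 and HEY1, at 47.3% to 49.9%.

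**Figure D1:**
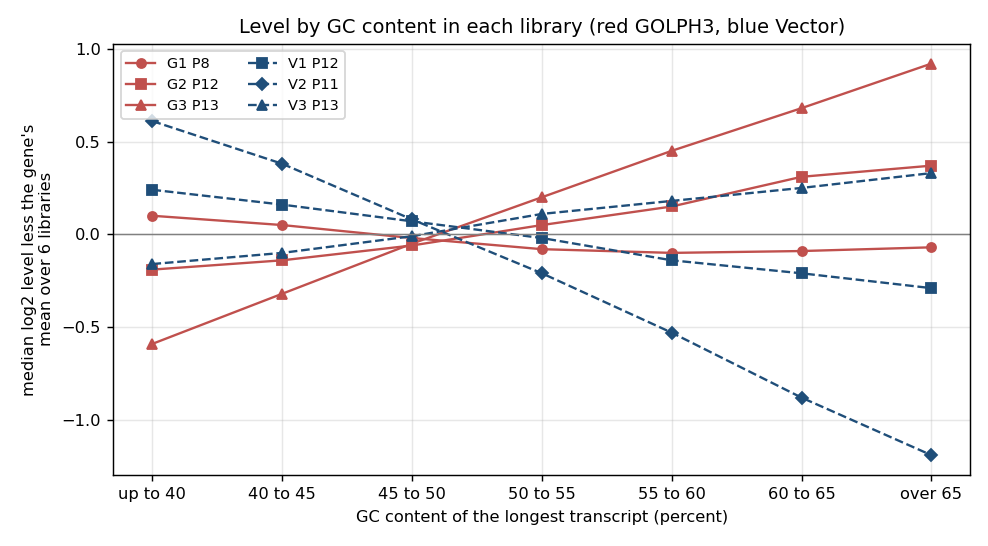
Median log2 level of genes relative to their own mean over the 6 libraries (y axis) by the GC content of the longest transcript in percent (x axis), 1 line per library, in genes with a mean of at least 50 normalized reads. Above 65% GC the lines lie between -1.19 (Vector replicate 2) and 0.92 (GOLPH3 replicate 3), and near 45% to 50% they meet within 0.08 of 0.

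The main comparison was of the libraries labelled GOLPH3 with those labelled Vector, the contrast named in the study's design. The test was limma on log2(normalized reads + 1) over 26536 genes that reached 1 normalized read in 3 or more libraries, with Benjamini-Hochberg adjustment over all 26536. The Notch target HEY1 was nearly lost from the libraries labelled GOLPH3, with a mean 79.6-fold lower than under the label Vector. In bulk RNA, fewer cells that make a transcript and less of it per cell cannot be told apart. HES1 and NRARP, the other targets, overlapped between the groups. The ligands JAG1 and JAG2 and the receptor NOTCH1 were higher in every library labelled GOLPH3 than in any labelled Vector, without an adjusted p under 0.05 in this fit. With the P numbers as a block, where P8 and P11 were joined for want of a partner, all of these 3 passed (adjusted p = 0.00304, 1.02e-04 and 0.00353 by limma). In that fit 20.9% of all genes passed (9.43% higher), as described after the single genes. Of the 9 members that entered the fit, 1 was lower with an adjusted p under 0.05 and 0 were higher, where 5.07% of all genes tested passed this threshold (4.12% lower and 0.953% higher). In 4 of the 9, 3 higher and 1 lower, the 2 groups did not overlap, against 22% of all genes tested (9.2% higher and 12.8% lower). The median log2 difference of the 9 was 0.82, and that of all genes tested was 0.02. DLL1 did not enter the fit.

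**Figure D2:**
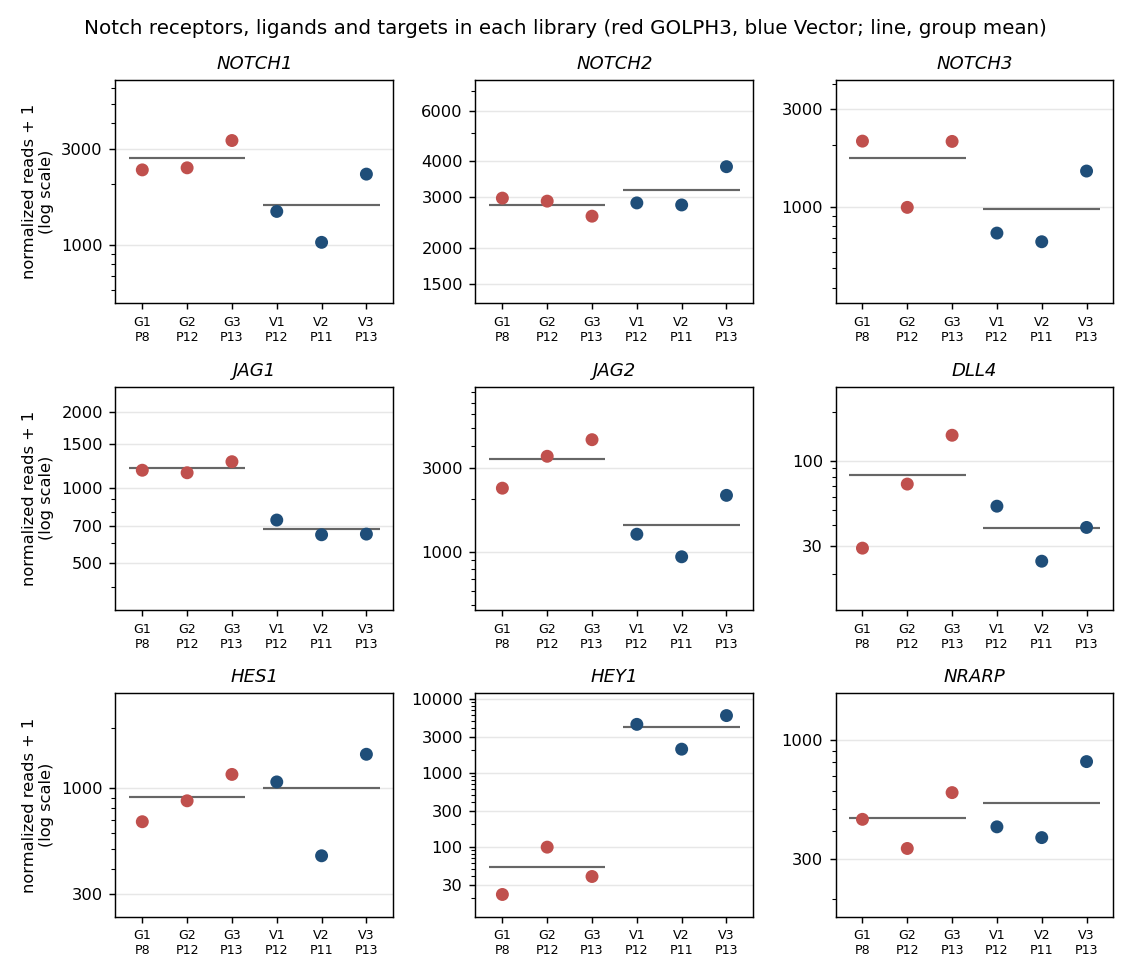
Normalized reads + 1 (y axis, log scale) of each detected member in each library (x axis: replicate and P number), with a line at the group mean. HEY1 sits between 21.5 and 97.3 normalized reads in the GOLPH3-labelled libraries and between 2079 and 5922 in the Vector-labelled ones, JAG1 and JAG2 separate by less, and HES1 and NRARP overlap.

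HEY1, a repressor of the hairy and enhancer-of-split-related family, is a minus-strand gene of chromosome 8, from 79764010 to 79767863. It had 21.5, 97.3 and 38.4 normalized reads in GOLPH3 replicates 1 to 3 and 4505, 2079 and 5922 in Vector replicates 1 to 3. The highest library labelled GOLPH3 was thus far under the lowest labelled Vector. HEY1 averaged 52.4 ± 39.8 (SD, n = 3) against 4169 ± 1943 (SD, n = 3), and the log2 difference was -6.43 (standard error 0.53, 95% confidence interval -7.58 to -5.28), with an adjusted p of 1.27e-05 by limma, and an exact permutation test (two-sided, on the log2 levels) gave 0.1, the smallest value that 3 libraries against 3 allow. Within the pairs that share a P number the difference was -5.52 at P12 and -7.23 at P13, so it had the same sign in both. The loss was not complete, since 20, 118 and 36 reads were counted in the libraries labelled GOLPH3, all above the limit of 3. NOTCH1, JAG1 and JAG2, whose groups did not overlap either, reached the same smallest permutation p.

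Other transcripts moved with HEY1 between the same libraries. Over all genes, 174 stood at 3 reads or fewer in each GOLPH3-labelled library with 50 normalized reads or more in each Vector-labelled one, and 0 had the reverse pattern. HEY1 was not among the 174 because its residual reads exceeded the limit, and neither was any other member. Summed, the 174 genes made up 0.311%, 0.198% and 0.545% of the normalized reads in Vector replicates 1 to 3. That is the order in which HEY1 stood in the 3 Vector libraries, lowest in replicate 2 and highest in replicate 3. Taken singly, 133 of the 174 genes had this order, against 25.1% of all genes tested. Among the HEK293 genes named above, IRS4 (1412, 1006 and 4831 normalized reads) and UCHL1 (1173, 415 and 1757) had it. NEFL (372, 383 and 742), NEFM (346, 501 and 612) and LIN28B (727, 641 and 639) did not. The part of all these transcripts in the HEY1 result was not tested. Endothelium is a cell type known for HEY1, DLL4 and NRARP, and its 8 markers were at low levels. They summed to 29.7 to 50.5 normalized reads under the label GOLPH3 and 31.8 to 46.3 under the label Vector, and no single value exceeded 22.5.

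HES1, the target that mediates much of the Notch effect in the intestine, lies on chromosome 3 from 194136145 to 194138732 on the plus strand. Its levels were 684, 868 and 1172 normalized reads in the GOLPH3-labelled libraries and 1076, 464 and 1474 in the Vector-labelled ones. Both the lowest and the highest of the 6 values belonged to Vector libraries, so the groups overlapped completely. On the log2 scale they differed by -0.03 (standard error 0.41, adjusted p = 0.984 by limma), and the 95% confidence interval ran from -0.92 to 0.87, which leaves room for a change of either sign. The intervals of HES1 and of HEY1, -7.58 to -5.28, do not meet.

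NRARP, the feedback inhibitor, lies on chromosome 9 from 137300482 to 137302251. It had 448, 333 and 588 normalized reads in the GOLPH3-labelled libraries and 415, 372 and 806 in the Vector-labelled ones. Here too the groups overlapped, and Vector replicate 3 held the highest value. By limma the log2 difference was -0.17 (standard error 0.37, adjusted p = 0.858, 95% confidence interval -0.97 to 0.64). NRARP has the highest GC content of the members, 67.3%. A correction of each library's log2 levels for GC content, added after the data had been seen, moved its difference to -0.68 with an adjusted p of 0.211.

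Of the ligands, JAG2 differed most. JAG2 (chromosome 14, 105140981 to 105168824) had 2294, 3478 and 4319 normalized reads in the GOLPH3-labelled libraries and 1258, 937 and 2089 in the Vector-labelled ones. The lowest of the former exceeded the highest of the latter, with means of 3364 ± 1017 (SD, n = 3) and 1428 ± 595 (SD, n = 3). This came to a log2 difference of 1.27 (standard error 0.36, 95% confidence interval 0.49 to 2.04), and its adjusted p of 0.0666 by limma did not pass the threshold without the P block. After the GC correction the difference was smaller, at 0.84, but its 95% confidence interval was narrower, at 0.41 to 1.26, and its adjusted p was 0.0227. The within-pair differences were 1.47 at P12 and 1.05 at P13. JAG2 shares 469 exon bases with AL512356.1 and JAG1 shares 79 with AL050403.2, both listed at 0 in all 6 libraries.

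JAG1 (chromosome 20, 10637684 to 10673999) was the steadiest of the members within each group. It had 1172, 1145 and 1268 normalized reads in the GOLPH3-labelled libraries and 740, 646 and 650 in the Vector-labelled ones. The groups were separated by a wide gap relative to their spread, with means of 1195 ± 64.9 (SD, n = 3) and 679 ± 53.2 (SD, n = 3). For JAG1 the log2 difference was 0.82 (standard error 0.27, 95% confidence interval 0.24 to 1.40) with an adjusted p of 0.115 by limma, against 0.00304 with the P block. Its standard error in the fit rests on the variance shared across genes of like level, and is larger than these 6 values alone would give. With a GC content of 49.6%, JAG1 moved little under the GC correction, to 0.92, and its adjusted p became 0.0155, so that both jagged ligands passed in that setting, where 6.56% of genes passed (2.04% higher).

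The delta-like ligands were much lower. DLL4 (chromosome 15, 40929333 to 40939073, plus strand), a ligand best known from blood vessels, had 27.9, 70.9 and 143 normalized reads under the label GOLPH3 and 51.5, 23 and 37.8 under the label Vector. The groups overlapped, and GOLPH3 replicate 3 alone lay above 100. The log2 difference of 0.87 had a standard error of 0.60 and an adjusted p of 0.499 by limma. It was 0.32 without GOLPH3 replicate 3, 1.48 without GOLPH3 replicate 1 and 0.57 without Vector replicate 2. In the P12 and P13 pairs alone it was 1.17 (adjusted p = 0.0272 by limma), where 22.4% of genes were called. That fit has very few residual degrees of freedom, and the pairs were uneven, at 0.45 for P12 and 1.89 for P13. DLL1 (chromosome 6, 170282206 to 170306565), a ligand of intestinal progenitors and secretory cells, was listed at 0 in all 6 libraries. That value cannot be read as absence, since FAM120B, a gene that overlaps DLL1 on the opposite strand, was listed at only 0.825 to 6.4 normalized reads, while PSMB1 and TBP nearby had at least 2403 and 564. These 3 genes were chosen after the DLL1 value had been seen.

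**Figure D3:**
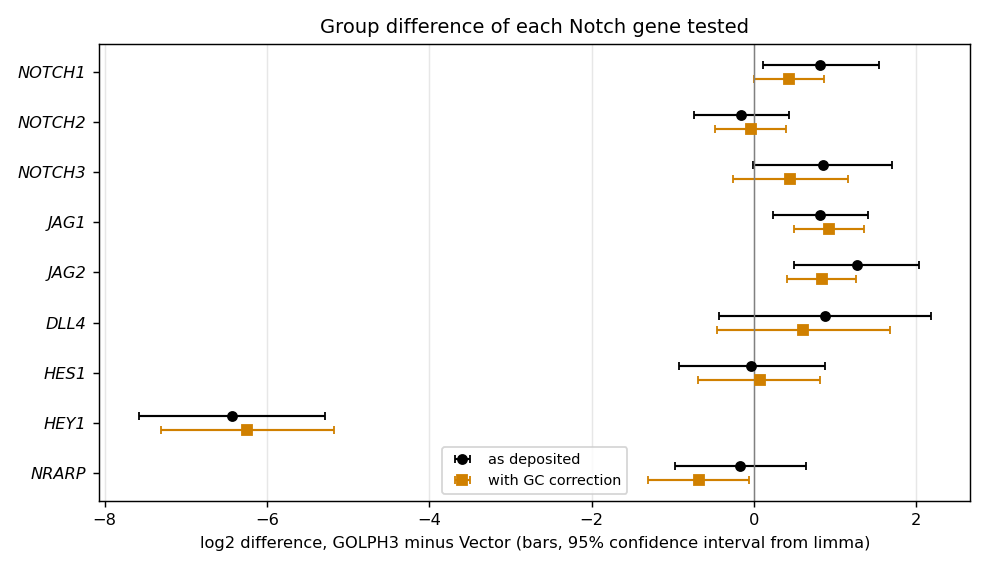
Log2 difference between the groups (x axis, GOLPH3 minus Vector) for each member tested, as a point with its 95% confidence interval from limma, on the levels as deposited (black) and after a GC correction (orange). HEY1 stands at -6.43 and -6.24, JAG1 and JAG2 lie above 0 in both, and the intervals of NOTCH2 and HES1 include 0 in both.

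Of the receptors, NOTCH1 (chromosome 9, 136494433 to 136545786, minus strand) had 2350, 2406 and 3285 normalized reads in the GOLPH3-labelled libraries and 1463, 1028 and 2239 in the Vector-labelled ones. The groups did not overlap, but GOLPH3 replicate 1 and Vector replicate 3 lay close together. The log2 difference was 0.82 (standard error 0.33, 95% confidence interval 0.11 to 1.54, adjusted p = 0.209 by limma, and 0.00353 with the P block). It was 0.43 after the GC correction, with an adjusted p of 0.254.

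NOTCH3 (chromosome 19, 15159038 to 15200981), a receptor of similar GC content, had 2095, 991 and 2088 normalized reads under the label GOLPH3 and 741, 672 and 1494 under the label Vector. GOLPH3 replicate 2 fell inside the Vector range, so the groups overlapped. Their log2 difference was 0.85 (standard error 0.39, adjusted p = 0.29 by limma, and 0.016 with the P block, where 20.9% of all genes passed). It was 0.45 after the GC correction (adjusted p = 0.495 by limma, and 0.122 with the P block added).

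NOTCH2 (chromosome 1, 119911553 to 120069626) was the receptor with the most even levels, at 2984, 2913 and 2584 normalized reads under the label GOLPH3 and 2872, 2826 and 3834 under the label Vector. Of the 6 libraries, 5 lay within a narrow range and Vector replicate 3 stood above them. The log2 difference was -0.16 (standard error 0.27, adjusted p = 0.813 by limma, 95% confidence interval -0.74 to 0.43). NOTCH2 has near copies in the genome, and how reads that match several copies were counted is not given in the sources used here. Of these copies NOTCH2NLC had 16.5 to 82.2 normalized reads, NOTCH2NLA at most 6.18 and NOTCH2NLB at most 2.19.

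Levels were compared between genes per kilobase of exon. In the libraries labelled GOLPH3 the order of mean normalized reads per kilobase was JAG2 at 526, HES1 at 440, NOTCH1 and NRARP at 258 each, NOTCH3 at 184, NOTCH2 at 168, JAG1 at 129, DLL4 at 16.9 and HEY1 at 16.2. Neighbours in this order overlapped over the 3 libraries except for HES1 over NOTCH1, NOTCH2 over JAG1 and JAG1 over DLL4. In the libraries labelled Vector HEY1 led with 1290, followed by HES1 at 487, NRARP at 300, JAG2 at 223, NOTCH2 at 189, NOTCH1 at 152, NOTCH3 at 103, JAG1 at 73 and DLL4 at 7.86. There each gene overlapped the next down to JAG1, and only JAG1 over DLL4 was separated. HEY1 thus stood at the top of the Vector order and at the level of DLL4 in the other, and JAG2 stood in the middle of the Vector order and first in the other, overlapping its neighbours in both.

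The comparison was also fitted with the P numbers as a block of 3 sets, P12, P13, and P8 joined with P11, which have no partner. This fit leaves few residual degrees of freedom. There 5 of the 9 members passed, HEY1 and 4 that were higher under the label GOLPH3, namely NOTCH1 (adjusted p = 0.00353 by limma), NOTCH3 (0.016), JAG1 (0.00304) and JAG2 (1.02e-04), while 20.9% of all genes passed (9.43% higher). With the GC correction added to that block 4 of the 9 passed, against 15.1% of all genes (8.28% higher and 6.86% lower). These were HEY1, JAG1 (adjusted p = 0.00161 by limma), JAG2 (0.00256) and NRARP, which was lower, at a log2 difference of -0.68 (0.0147). NOTCH1 and NOTCH3 no longer passed there, with an adjusted p of 0.0674 and 0.122 by limma. DESeq2 on the recovered reads called HEY1 and JAG2 (adjusted p = 0.0268), where 8.68% of genes were called (2.63% higher). Among the members other than HEY1, JAG2 thus passed in the most settings tried, and HES1 and NOTCH2 passed in none of them.

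Within the libraries labelled Vector, all 9 detected members had their lowest level in replicate 2, as had 41.2% of all genes tested, and 7 of the 9 had their highest level in replicate 3, against 37.8%. JAG1 and DLL4 were the exceptions, highest in replicate 1. Vector replicate 2 is also the library with the lowest level of GC-rich genes, at -1.19 above 65% GC, and the part of GC content in this order was not tested. For HES1 the span within the Vector group, 464 to 1474, was wider than the span within the GOLPH3 group, 684 to 1172.

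The pair of libraries that share the number P12 (GOLPH3 replicate 2 and Vector replicate 1) was compared with the other 4, with the group as a covariate, since these libraries had been seen to stand apart in earlier results of these data. Of the 9 members 0 were called by limma, where 0% of all genes were. At an unadjusted p under 0.05 there were 1920 genes (7.24%), and 0 of the 9 members were among them. On the recovered reads DESeq2 also called 0 of the 9, with 200 of 15908 genes called (1.26%), and edgeR called 0 of the 9 and 0 genes in all. The differences ranged from -0.76 for NOTCH3 (adjusted p = 0.72) to 1.04 for HEY1 (adjusted p = 0.711). That of NOTCH3 was -0.43 without GOLPH3 replicate 2. That of HEY1 was 0.36 without GOLPH3 replicate 2 and 1.72 without Vector replicate 1, and with the replicate number as a block it was 1.62 (adjusted p = 7.67e-09 by limma), where 14.5% of genes were called. The fit with that block has very few residual degrees of freedom, so its adjusted p leans on the variance shared across genes. For HEY1, the P12 library was the highest of those labelled GOLPH3 and lay between the others of those labelled Vector. A test of whether the group effect differed at P12 called 0 genes by limma, members included, with 297 genes (1.12%) at an unadjusted p under 0.05. That test has few residual degrees of freedom and could have missed a difference.

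The rest of the pathway was read from a list of 57 genes in the same fit, of which 53 were tested. Of these 0 rose and 3 fell with an adjusted p under 0.05, and their median log2 difference was -0.08. That is a share close to the 5.07% of all genes. The 3 that fell were HEY2, DTX3 and KAT2B.

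HEY2, a close relative of HEY1, had 2.15, 1.65 and 3.2 normalized reads under the label GOLPH3, at or under 3 reads in each library, and 164, 27.4 and 221 under the label Vector. It was at least 42.6-fold lower by the group means with the GOLPH3 group set at the 3-read limit, with a fitted log2 difference of -4.95 (adjusted p = 0.00136 by limma). As for HEY1, replicate 2 was the lowest of the Vector libraries and replicate 3 the highest, an order held by 25.1% of all genes tested. The call was lost when no filter on low genes was applied (adjusted p = 0.153). HEYL, the remaining HEY gene, was named after its values had been seen, and had 268, 247 and 279 normalized reads against 238, 322 and 325 (log2 difference -0.14, adjusted p = 0.857 by limma). The group differences of HEY1 and HEY2 passed the test, and HEYL was at overlapping levels in both groups. Of the other HES genes, HES2, HES4, HES6 and HES7 did not pass the test, with log2 differences from -0.87 to 1.04, and HES5 and HELT were not tested. HES4, with a GC content of 73.9%, ran from 391 to 3187 normalized reads, and its lowest libraries were Vector replicate 2 and GOLPH3 replicate 1.

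**Figure D4:**
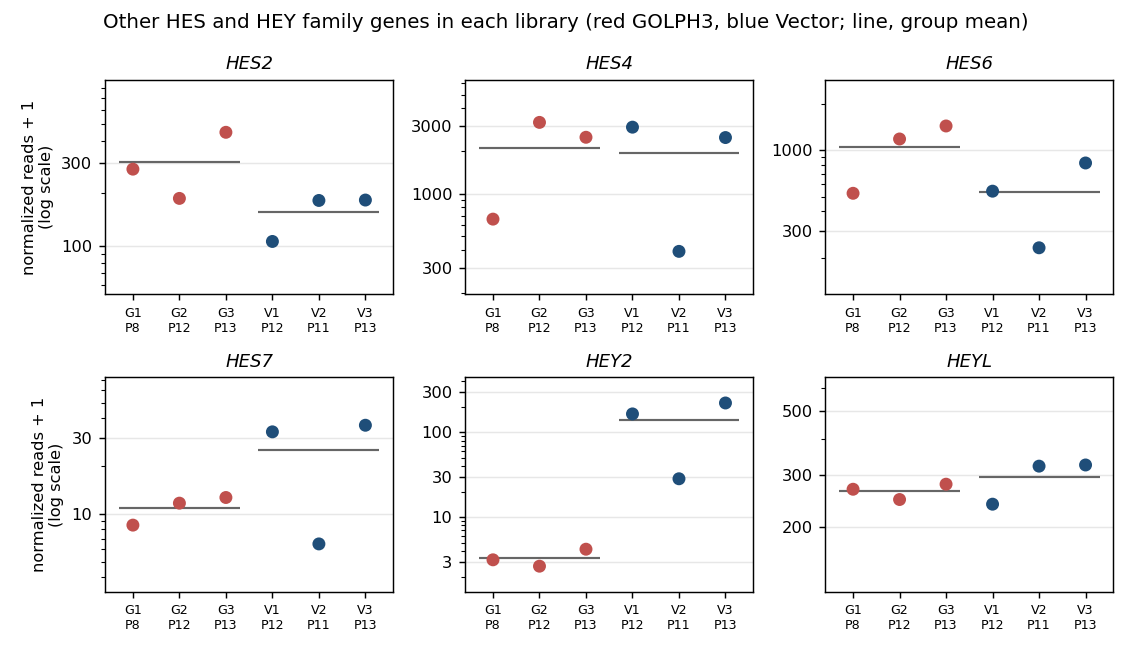
Normalized reads + 1 (y axis, log scale) of the 6 other HES and HEY genes tested, in each library (x axis: replicate and P number), with a line at the group mean. HEY2 lies between 1.65 and 3.2 normalized reads in the GOLPH3-labelled libraries and between 27.4 and 221 in the Vector-labelled ones, while HEYL lies between 238 and 325 in all 6.

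Among the negative regulators 1 of 9 fell. DTX3, a member of the deltex family of ubiquitin ligases, had at most 2.13 normalized reads under the label GOLPH3 and 19.6, 12.1 and 24.9 under the label Vector, at least 5.85-fold lower by the group means against the 3-read limit (adjusted p = 0.00659 by limma). Without filter, without Vector replicate 3 and without the P12 pair its adjusted p was 0.185, 0.0615 and 0.167. In the nuclear complex 1 of 9 fell, the acetyltransferase KAT2B, with 160, 132 and 86.5 normalized reads against 362, 289 and 304 (log2 difference -1.37, adjusted p = 0.0453 by limma). Its call was lost in 11 of 18 alternatives, with adjusted p up to 0.454. RBPJ, the DNA-binding partner of the receptors, had 2405, 3152 and 1459 normalized reads against 2989, 3142 and 1627, with overlapping groups (adjusted p = 0.866 by limma).

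The remaining steps of the pathway held 0 calls. NCSTN, a subunit of gamma-secretase, had a log2 difference of -0.24 (adjusted p = 0.681 by limma). PSENEN, a small subunit of the same protease, ran from 14 to 155 normalized reads over the 6 libraries and had a log2 difference of 0.82 (adjusted p = 0.695 by limma). Of the 10 genes that handle ligands and receptors, such as the fringe glycosyltransferases and the mind bomb ligases, 0 passed. Their median log2 difference was 0.91, and MFNG, at 75.1, 84.9 and 91.8 normalized reads against 27.8, 28.5 and 28.3, had an adjusted p of 0.0569 by limma. MIB2 had a log2 difference of 1.51 and an adjusted p of 0.0668, at a GC content of 68.4%. Both were singled out after their values had been seen. Of the corepressors 0 of 8 passed. The ligand-like gene DLL3, which acts inside the cell and does not activate receptors, had 6.44, 0 and 13.9 normalized reads against 56.6, 15.3 and 92.7, with groups that did not overlap, a fitted log2 difference of -3.21 and an adjusted p of 0.0845 by limma. It passed in 8 of 18 alternatives, among them DESeq2 (0.00573), the P block (0.0108) and the GC correction (0.0232), while its difference was -2.08 without GOLPH3 replicate 2 and -1.89 without the P12 pair. NOTCH4, the fourth receptor, was listed at 0 in all 6 libraries. As with DLL1 this is no sign of absence, because TUBB, a tubulin gene that every cell uses on the same chromosome, was listed at no more than 1.72.

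Genes taken as lying downstream of Notch or HES1 in the intestine were read from a list of 11, of which 7 were tested. With an adjusted p under 0.05, 0 rose and 1 fell, where 5.07% of all genes tested passed (4.12% lower). LGR5, a marker of intestinal stem cells, had 2.15, 4.12 and 1.07 normalized reads under the label GOLPH3 and 99.8, 38.3 and 68.7 under the label Vector (log2 difference -4.34, standard error 0.61, adjusted p = 8.32e-04 by limma). The groups did not overlap. The lowest Vector library was replicate 2, as for HEY1, HEY2 and 41.2% of all genes tested, but the highest was replicate 1, unlike HEY1 and HEY2. Without filter its adjusted p was 0.059. GFI1, a transcription factor of secretory cells, had 154, 302 and 216 normalized reads against 284, 164 and 239, with overlapping groups (adjusted p = 0.962 by limma). ATOH1, the secretory regulator that HES1 represses, had at most 4.38 normalized reads in any library, and MUC2, the goblet cell mucin, at most 7.47. SPDEF, another secretory regulator, had 2.06 to 9.61. At such low levels a fall could hardly be seen at this depth, and a small rise could be missed.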

How the data were processed

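The authors sequenced RNA from HCT-116 cells with PMSCV-GOLPH3 (n = 3) or the empty PMSCV-Vector (n = 3) and deposited 1 signal value per gene and library. The submitters' processing notes name fastp 0.20.0, HISAT2 2.1.0, Cufflinks, featureCounts 1.6.1, DESeq2 and GRCh38 without giving their roles. Strand and the treatment of reads with several matches are not given in the sources used here. All nonzero values of a library were whole multiples (tolerance 0.05 of a step) of 1 step between 0.8246 and 1.0955, so the deposited signal is the read count of a gene over a size factor set by the authors, with no correction for length. Of 60590 rows, 44 repeated an identifier and were added to the first. Coordinates, exon lengths and GC content came from GENCODE 29 on GRCh38, which held 58367 (96.4%) of the identifiers, and promoters came from RefSeq. GC content was known for 97.6% of the genes tested and all 9 members in the fit.

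The values were analysed with limma 3.58.1 in R 4.3.3 on log2(value + 1), with a prior variance that follows the mean, and 26536 genes entered. Fold changes of low genes are understated on this scale. Genes listed at 3 reads or fewer in a whole group are given as a bound. No 2 libraries of a group agreed within sampling noise (chi-square per degree of freedom at least 65.35). The named genes were all 10 members, GOLPH3, pathway genes with an adjusted p under 0.05 together with NOTCH4, DLL3, RBPJ and the gamma-secretase subunits, intestinal genes above 3 reads, and, for the receptor, ligand and target with the widest range, the 3 genes most alike. Part of what this rule names is not reported here. The members and all lists were chosen with earlier results of these data known. Marker lists covered colon epithelium, endothelium, fibroblast, HEK293 cells and blood. The alternatives were quantile normalization, no filter, a filter of 10 normalized reads in 3 libraries, a pseudocount of 0.1, DESeq2 1.42.0 and edgeR 4.0.16 on the recovered reads, each library left out, the replicate number as a block, the P set as a block (P12, P13, and P8 with P11), the P12 pair left out, the P12 and P13 pairs alone, and a call by unadjusted p under 0.05 with an absolute log2 difference over 1. A GC correction (per-library lowess, span 0.3), also with the P set as a block, was chosen after seeing the data. The scripts were tested on simulated data.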

Additional observations from a re-analysis of the deposited data

How the results depend on the processing

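HEY1 was lower with an adjusted p under 0.05 in all 18 alternatives, with log2 differences from -7.00 to -5.94 over the planned 16. JAG1 (0.77 to 0.91), JAG2 (1.01 to 1.58) and NOTCH1 (0.55 to 1.11) stayed above 0. In the 288 combinations of 16 genes named in the text (GOLPH3 included) with 18 alternatives, 240 kept direction and side of the threshold, 16 lost a call, 24 gained one and 8 changed sign. The sign changes were of HES1, at 0.16, 0.10 and 0.33 without GOLPH3 replicate 1, Vector replicate 1 and Vector replicate 3, 0.11 without the P12 pair and 0.07 under the GC correction with or without the P set as a block, and of NRARP, at 0.04 without GOLPH3 replicate 2 and 0.18 without Vector replicate 3. With a library left out, HES1 ran from -0.51 to 0.33 and NRARP from -0.38 to 0.18. The cause was not tested.

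The number of members called, 1 in the main test, was 2 by DESeq2 (8.68% of all genes called) and by unadjusted p with a fold limit (14.2%), 3 under the GC correction (6.56%), 4 with the P set block added to it (15.1%), 5 with the P set block alone (20.9%) and 5 in the P12 and P13 pairs (22.4%). The pairs called DLL4 and not NOTCH3, and the block the reverse. Leaving out a library gave 1 to 2, where JAG2 was added without GOLPH3 replicate 1 and without Vector replicate 3. The pathway count, 3 in the main test, was, in settings with those shares, 6 by DESeq2, 5 under the GC correction, 11 with the P set block added, 18 with that block alone, 19 in the 2 pairs and 7 by unadjusted p. It was 1 without filter (MFNG, higher; 0.591% of all genes), 1 without the P12 pair (1.1%) and 1 to 4 with a library left out, lowest without Vector replicate 3.

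Deviations from the group means correlated at -0.23, -0.15 and 0.26 between samples with replicate number 1, 2 and 3, so the number was not taken as a pairing. Within the P sets they correlated at 0.26 (P12), 0.26 (P13, also replicate 3) and 0.33 (P8 with P11). With the replicate block 1 member and 3 pathway genes were called in the group comparison, the latter HEY2, DTX3 and DLL3 (adjusted p = 0.0232 by limma), while KAT2B was not (0.0654). In the P12 comparison that block left very few residual degrees of freedom. It called 2 members there, HEY1 (1.62, adjusted p = 7.67e-09 by limma) and HES1, and 3843 genes in all.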

Other observations

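For the receptor, the ligand and the target with the widest range over the 6 libraries, the genes with the most similar pattern were sought among 12662 tested genes with a mean of at least 50 normalized reads, by the root mean square difference of log2 levels centred on each gene's mean over the 6 libraries. NOTCH1 was matched most closely by CIC (0.02), POR (0.06) and NEIL1 (0.07). CIC, which codes for a transcriptional repressor, had 2220, 2291 and 3098 normalized reads in the GOLPH3-labelled libraries and 1368, 996 and 2161 in the Vector-labelled ones. The 3 genes have a GC content of 65.8%, 61.3% and 61.3%, near the 62.9% of NOTCH1.

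DLL4 was matched by ZC3H12A (0.25), FAM83E (0.26) and TNNI3 (0.27), with a GC content of 58.5% to 66.5% against 59.7% for DLL4. HEY1 was matched by GLB1L3 (0.27), TRIM71 (0.30) and MMP2 (0.35). Each of the 3 had at most 2.47 normalized reads in every library labelled GOLPH3 and was lower there with an adjusted p of at most 1.20e-04 by limma, and their GC content ranged from 47.4% to 56.5%. TRIM71, an RNA-binding protein of early development, had 131, 81.1 and 169 normalized reads in Vector replicates 1 to 3, and MMP2, a secreted matrix protease, had 202, 61.3 and 292. Both had the Vector order of HEY1, lowest in replicate 2 and highest in replicate 3, as had 25.1% of all genes tested. The 3 genes were chosen for likeness to HEY1 over these same libraries. Their low levels under the label GOLPH3, their adjusted p and this order therefore largely follow from the choice. With 6 libraries and many genes compared, such likeness is a description only.

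Of the other cell types listed, fibroblast markers summed to 825 to 1517 normalized reads under the label GOLPH3 and 488 to 810 under the label Vector, nearly all from COL1A1, and blood markers to 0.825 to 20.3 and 24.1 to 60.9. Colon epithelial markers summed to 62845 to 134414 and 30009 to 41154, and KRT18 and KRT19 were the 2 of 10 called higher.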
